A study of Rattus norvegicus with 29 samples.

Results

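The transcripts described here had a higher level after 24 h of gentamicin and stayed close to control after 24 h of 3 other compounds, in primary rat renal proximal tubule epithelial cells. They were chosen by their measured levels in TPM (a level scaled for transcript length and library total). For each compound, L was the log2 ratio of the treated to the control mean TPM at 24 h, with 1 TPM added to both means. A transcript was kept where its mean TPM over the 5 control libraries was 1 to 500, its L was at least 1.3 for gentamicin, and its L lay within 0.5 of 0 for acetaminophen, TCDD and trichloroethylene. Of 28420 transcripts in the files, 13730 had a control level in that range. In that range 853 reached an L of 1.3 with gentamicin, and 79 of those, or 9.26%, also met the limits for the other compounds. The choice allowed up to 150, so all 79 are described.

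The cells were cultured proximal tubule cells, and each of the 29 RNA sequencing libraries was made from control cells or from cells that had received acetaminophen, gentamicin, TCDD or trichloroethylene, at 6 h or 24 h. Every compound and time had 3 libraries, as did control at 24 h, while control at 6 h had 2 (replicates 2 and 3). Doses, the vehicle given to control cells, the rat strain and whether replicates were separate cultures are not given in the labels, so p-values measure the spread between these libraries, which may be technical. Library totals ran from 8243698 to 11446612 estimated counts. The files identify transcripts by Ensembl identifier without gene names, and the reference tables used here paired 0 of them with a gene, so the transcripts are described by identifier, rank, level and length. For the same reason the labelled cell type was not checked against its markers.

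Proximal tubule cells form the part of the nephron next to the glomerulus and take up filtered proteins by endocytosis through the receptors megalin and cubilin. Gentamicin, an aminoglycoside antibiotic, enters these cells by the same route and collects in lysosomes, and injury to the proximal tubule is its best known side effect in the kidney. Acetaminophen is an analgesic that is oxidised to a reactive metabolite, TCDD is a dioxin that activates the aryl hydrocarbon receptor, and trichloroethylene is a solvent whose metabolites, formed after conjugation to glutathione, reach the kidney. RNA from a whole culture gives an average, so fewer cells of a type and less RNA per cell cannot be told apart.

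At 24 h, L for gentamicin ran from 1.31 to 3.74 with a median of 1.68. It was 1.3 to 1.5 in 22 transcripts, 1.5 to 2 in 38, 2 to 3 in 16 and over 3 in 3. Just inside the limit lay L values of 1.3098, 1.3093 and 1.3067, and just outside it 1.2989, 1.2976 and 1.2916. The 24 h values chose the transcripts, so they are a description and carry no test. The summed TPM of the 79 was 2098.8, 2213.7 and 2105.3 in the control libraries of 24 h and 7792.2, 7791.0 and 7553.0 in those of gentamicin. It was 2454.9, 2256.6 and 2603.3 with acetaminophen, 2290.1, 1818.1 and 2550.8 with TCDD, and 2117.2, 2395.5 and 2287.8 with trichloroethylene. The 3 gentamicin libraries thus lay far above the other 12 of that time. For single transcripts, the lowest gentamicin library of 24 h was above every other library of 24 h in 79 of 79, and above every other library of the study in 78. The choice favours such separation, and no share over all tested transcripts is at hand for it.

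**Figure D1:**
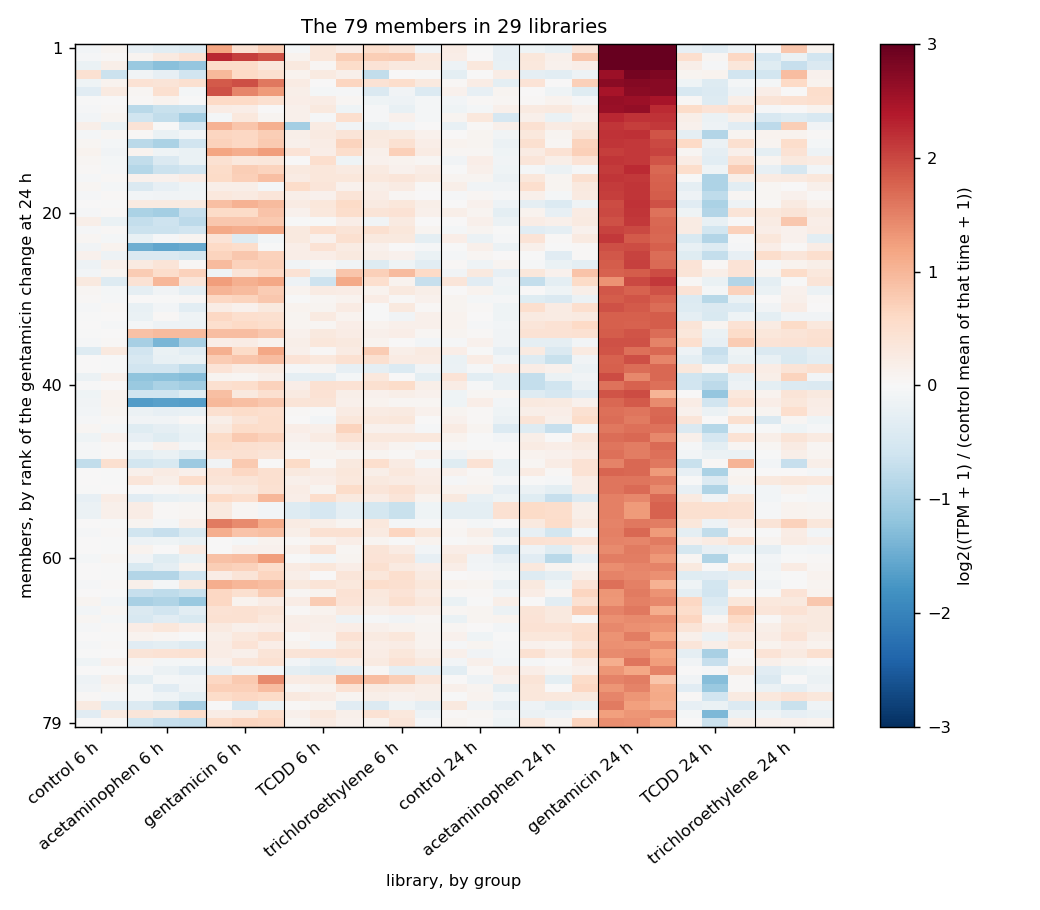
Level of each of the 79 transcripts in each of the 29 libraries, as the log2 ratio of TPM + 1 to the control mean of the same time + 1, with transcripts in order of the gentamicin change at 24 h from the top and libraries by group from left to right. Red marks levels above control and blue levels below it, and changes beyond either end of the colour scale take the end colour. The gentamicin libraries of 24 h are red throughout by the choice of transcripts, those of 6 h are paler red in most transcripts, and the acetaminophen libraries of 6 h hold most of the darker blue.

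The 3 transcripts with an L over 3 had low or moderate levels in control cells. The transcript of rank 1 by L (1958 bases) was at 3.25, 2.63 and 2.06 TPM in control and at 49.7, 50.0 and 43.8 TPM with gentamicin at 24 h. The transcript of rank 3 (2326 bases) was at 0.93, 1.69 and 0.844 TPM in control and at 22.7, 24.4 and 23.3 TPM with gentamicin. In both, every gentamicin library of 24 h was more than 10 TPM above every other library of the study. At the other end of the abundance range, the shortest transcript (rank 73, 253 bases) was also the most abundant in control cells. It had 307.9, 398.1 and 453.1 TPM in control and 961.7, 868.8 and 1078.0 TPM with gentamicin at 24 h, again without overlap.

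The closeness to control under the other compounds depends on the scale. On the TPM scale of the choice, the median L of the 79 at 24 h was 0.20 for acetaminophen, -0.11 for TCDD and 0.08 for trichloroethylene, while over all transcripts in the control range it was 0.10, -0.40 and 0.01. In the count model (edgeR, with TMM factors that set the scale from the bulk of transcripts, fitted to 15990 transcripts, all 79 included), a transcript was called where its Benjamini-Hochberg adjusted p was under 0.05. With gentamicin at 24 h all 79 were called higher, beside 29.1% of all tested, and 0 lower, beside 30.5%, which the choice fixes. With acetaminophen at 24 h 8 were called higher (30.3% of all tested) and 14 lower (29.2%). With trichloroethylene 14 were higher (20.7%) and 6 lower (19.9%). With TCDD 39 were higher (33.9%) and 1 lower (33.0%), with a median log2 change of 0.27.

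Other scales moved these counts, together with those of all tested transcripts. With acetaminophen, library totals in place of TMM factors gave 29 higher (38.9% of all tested) and 6 lower (21.4%), limma on log2(TPM + 1) gave 18 (35.9%) and 4 (22.2%), and fragment length as a covariate gave 15 (27.7%) and 12 (27.0%). With trichloroethylene the same alternatives gave 19 higher (26.0%) and 4 lower (15%), 11 (21.7%) and 1 (16.0%), and 15 (16.5%) and 3 (16.3%). With TCDD they gave 32 higher (30.8%) and 2 lower (35.7%), 11 (21.1%) and 16 (45.1%), and 24 (23.6%) and 0 (24.7%). The median change over all tested transcripts with TCDD was 0.02 with TMM factors and -0.27 with limma on log2(TPM + 1). The fragment length of the TCDD libraries of 24 h, from 230.3 to 238.1 bases, lay below that of the control libraries, from 269.9 to 288.8 bases. That of gentamicin (259.2 to 264.5 bases) and trichloroethylene (248.3 to 259.0 bases) at 24 h also lay below control. With acetaminophen (232.7 to 274.7 bases) it overlapped control. The part of fragment length in these values was not tested beyond that covariate. Of the 3 TCDD libraries, replicate 2 was the lowest in 67 of the 79 transcripts (84.8%, beside 70.8% of tested transcripts). Without it the median L for TCDD was 0.09, 8 transcripts passed 0.5 and 0 lay below -0.5. All 79 were called higher with gentamicin at 24 h on each of these scales. For the other 3 compounds the choice set a limit on the size of L, and some of the 79 were called with each of them at 24 h on every scale, so "only by gentamicin" means no more than that limit.

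The libraries of 6 h show whether the same transcripts had moved earlier, and the choice used them only through the control level, not through any treated library. With gentamicin at 6 h, 41 of the 79 transcripts rose (51.9%, beside 8.34% of all tested transcripts) and 0 fell (4.88%). The median log2 change of the 79 was 0.44, with quartiles of 0.23 and 0.81 and a range from -0.49 to 2.04, and the median of all tested transcripts was 0.01. The fitted change was above 0 in 73 transcripts (92.4%, beside 50.8% of all tested). Among the 41, the median change was 0.69, the smallest was 0.32 and 9 exceeded 2-fold. For a single transcript the SE was 0.151 at the median, so the 38 transcripts without a call include changes that this number of libraries could not separate from 0, up to 1.21 in log2.

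The small control group limits that count. Without control replicate 2, 24 transcripts were called higher (3.64% of all tested), and without control replicate 3, 25 were (4.06%), in both cases all from the 41. Leaving out a gentamicin library gave counts of 38 or 39. On log2(TPM + 1) with limma, 39 of the 79 were called higher and 0 lower, while the split over all tested transcripts was 1351 higher and 324 lower, in place of 1333 and 780 with edgeR.

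The levels in single libraries showed the same shift without a model. The summed TPM of the 79 was 2205.2 and 2255.6 in the controls of 6 h and 3009.6, 3069.3 and 3040.5 with gentamicin. It was 2048.7, 2025.5 and 1960.3 with acetaminophen, 2311.2, 2303.7 and 2457.6 with TCDD, and 2482.1, 2354.5 and 2244.6 with trichloroethylene. Gentamicin libraries were thus the 3 highest of the 14 of that time and acetaminophen libraries the 3 lowest. In 64 transcripts (81.0%) all 3 gentamicin libraries were above both controls, beside 34.9% of all tested transcripts, and in 1 (1.27%) all 3 were below, beside 13.4%. In 39 transcripts (49.4%) all 3 gentamicin libraries were above all 11 other libraries of 6 h, beside 6.54% of all tested. The gentamicin mean was the highest of the 5 groups in 60 (75.9%, beside 23.0%).

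**Figure D2:**
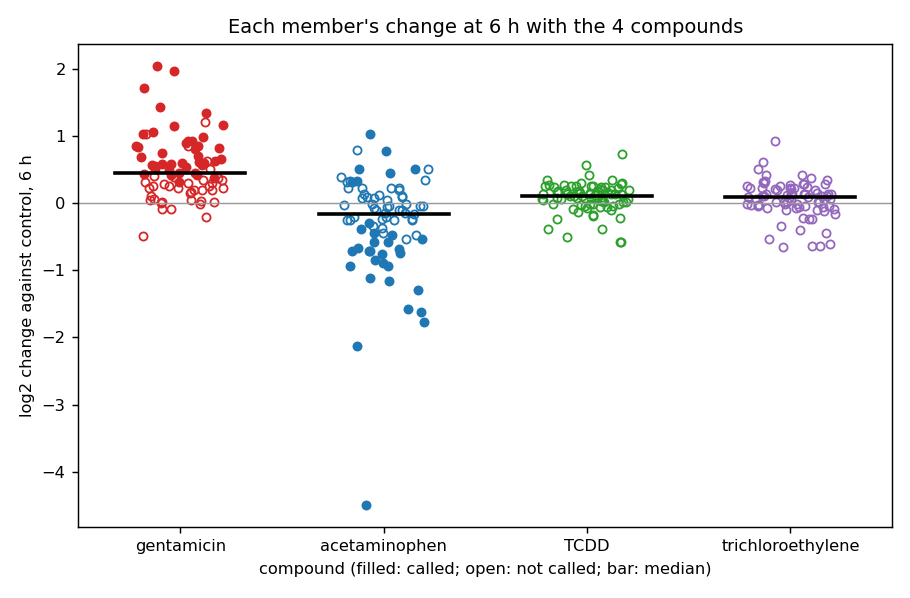
Log2 change against control at 6 h for each of the 79 transcripts with each compound (edgeR), with filled points for transcripts called at an adjusted p under 0.05, open points for the others and a bar at the median. With gentamicin 41 points are called, all above 0, around a median of 0.44; with acetaminophen 25 called points lie below 0 and 7 above; with TCDD and trichloroethylene no point is called.

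The transcript with the smallest p for gentamicin at 6 h was ENSRNOT00000016016 (2028 bases, rank 2 at 24 h). It was at 19.4 and 20.4 TPM in the controls of 6 h and at 100.2, 87.8 and 77.6 TPM with gentamicin. The other libraries of 6 h lay between: 21.1, 24.1 and 27.1 TPM with acetaminophen, 21.4, 25.5 and 34.0 TPM with TCDD, and 33.8, 34.7 and 25.0 TPM with trichloroethylene. Every gentamicin library was thus more than 2-fold above every other library of that time. ENSRNOT00000016016 rose by 2.04 ± 0.18 (SE) on the log2 scale, or 4.1-fold (edgeR, adjusted p = 2.3e-08). Against acetaminophen, TCDD and trichloroethylene directly, its log2 difference was 1.71, 1.75 and 1.52 (edgeR, adjusted p = 1.1e-09, 1.3e-08 and 9.1e-08). At 24 h it was at 42.1, 37.0 and 30.4 TPM in control and at 461.7, 507.9 and 516.4 TPM with gentamicin, while the other 9 libraries of that time ranged from 24.3 TPM with trichloroethylene to 65.2 TPM with acetaminophen. In the count model at 24 h it was also called higher with TCDD, by 0.80 ± 0.15 (edgeR, adjusted p = 6.1e-05). With trichloroethylene it was called lower, at -0.46 ± 0.16 (edgeR, adjusted p = 0.021).

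ENSRNOT00000015387 (1974 bases, rank 5 at 24 h) had the next smallest p for gentamicin at 6 h. It was at 27.5 and 32.6 TPM in the controls and at 110.3, 116.9 and 92.7 TPM with gentamicin. With acetaminophen it was at 40.8, 39.7 and 42.5 TPM, with TCDD at 35.6, 30.5 and 47.6 TPM, and with trichloroethylene at 40.7, 44.0 and 37.1 TPM. The gentamicin libraries were the 3 highest by a wide margin, and the acetaminophen and trichloroethylene libraries also lay above both controls. ENSRNOT00000015387 rose by 1.71 ± 0.18 on the log2 scale with gentamicin (edgeR, adjusted p = 3.6e-07) and by 0.50 ± 0.18 with acetaminophen (edgeR, adjusted p = 0.023). The acetaminophen rise was weaker in 3 of 15 alternatives, with log2 changes of 0.40 to 0.45. Its call was lost without control replicate 2 (edgeR, adjusted p = 0.19) and with limma on log2(TPM + 1) (adjusted p = 0.074). At 24 h its levels were 41.2, 46.4 and 32.2 TPM in control and 264.6, 273.1 and 268.4 TPM with gentamicin.

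A large change at 24 h did not always come with a call at 6 h. The transcript of rank 1 was at 1.57 and 1.87 TPM in the controls of 6 h and at 5.14, 2.72 and 3.57 TPM with gentamicin, a log2 change of 1.02 ± 0.30 (edgeR, adjusted p = 0.023). That call was lost without either control library (edgeR, adjusted p = 0.20 and 0.10), without gentamicin replicate 1 (0.13) and with only the groups compared in the fit (0.064). The transcript of rank 3 was at 1.07 and 1.69 TPM and at 2.47, 2.47 and 1.99 TPM, a log2 change of 0.62 that was not called (edgeR, adjusted p = 0.16). The most abundant transcript, of rank 73, was at 580.6 and 567.7 TPM in the controls and at 485.0, 535.8 and 544.9 TPM with gentamicin at 6 h. It was the transcript in which all 3 gentamicin libraries lay below both controls, and its log2 change of -0.21 ± 0.17 was not called (edgeR, adjusted p = 0.49).

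Direct contrasts between compounds at 6 h take their fold estimates without the control libraries, which enter only the shared estimate of the spread. Of the 79 transcripts, 58 were higher with gentamicin than with acetaminophen (73.4%, beside 28.3% of all tested) and 4 were lower (5.06%, beside 26.1%). Against TCDD 38 were higher (48.1%, beside 8.84%) and 0 lower (7.24%), and against trichloroethylene 37 were higher (46.8%, beside 9.72%) and 0 lower (7.49%). The median log2 difference was 0.78, 0.41 and 0.43. With only the groups compared in the fit, 59, 36 and 44 were higher. Over all alternatives, 18.9% to 33.7%, 5.26% to 11.5% and 5.84% to 12.6% of all tested transcripts were called higher in these contrasts. All 3 contrasts share the gentamicin libraries, so they are not independent of one another. The lack of a lower call at 6 h against control, TCDD or trichloroethylene held also at an unadjusted p under 0.05. There 0 of the 79 were lower in each of the 3, beside 10.5%, 13.6% and 14.3% of all tested. Higher were 51, 51 and 52, beside 14.9%, 14.6% and 16.0%.

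**Figure D3:**
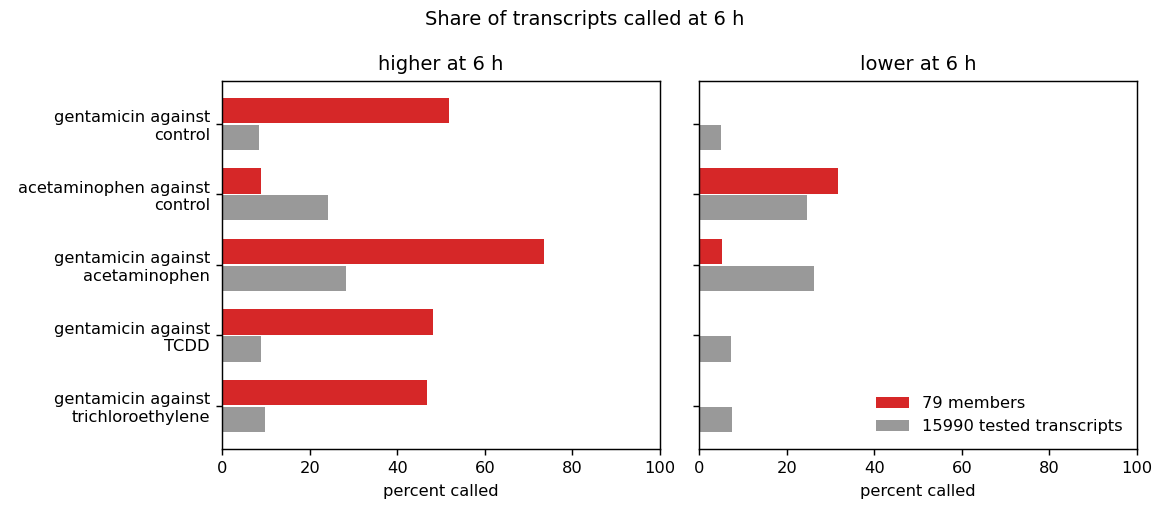
Percent of the 79 transcripts (red) and of the 15990 tested transcripts (grey) called higher, left, and lower, right, in 5 comparisons at 6 h (edgeR, adjusted p under 0.05). The 79 exceed the tested transcripts on the higher side in all 4 comparisons with gentamicin and fall below them on the lower side there, while for acetaminophen against control the order is the opposite.

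With acetaminophen at 6 h, 25 of the 79 transcripts fell (31.6%, beside 24.5% of all tested) and 7 rose (8.86%, beside 24.2%). The number that rose was 4 with limma on log2(TPM + 1) (20.6% of all tested) and 11 with only the groups compared in the fit (32.9%). The share that fell was thus nearer to that of all transcripts than the share that rose. The median log2 change was -0.17, with a range from -4.49 to 1.02. The 25 that fell had a median change of -0.76 and 8 of them fell over 2-fold, while 1 of the 7 rose over 2-fold. The acetaminophen mean was the lowest of the 5 groups of 6 h in 52 transcripts (65.8%, beside 45.0% of all tested). For 24 of the 25, the acetaminophen mean was higher at 24 h than at 6 h, as it was for 65 of all 79. The limit on acetaminophen at 24 h favours that order in transcripts that were low at 6 h. No share over all tested transcripts is at hand for either count. The median level of the 25 was 12.6 TPM in control and 5.71 TPM with acetaminophen at 6 h, then 14.3 TPM and 12.1 TPM at 24 h, where the choice held acetaminophen near control. Limits on the acetaminophen change at 24 h thus left in the group transcripts that differed at 6 h.

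The 2 transcripts of this kind printed here have the smallest p for acetaminophen at 6 h among those that fell, and were chosen after their values were seen. ENSRNOT00000072869 (4545 bases, rank 42) was at 18.7 and 21.6 TPM in the controls of 6 h, at 5.62, 5.82 and 5.70 TPM with acetaminophen, and at 40.5, 38.5 and 35.9 TPM with gentamicin. Both compounds moved it without overlap with control, in opposite directions. It fell by 1.77 ± 0.15 on the log2 scale with acetaminophen (edgeR, adjusted p = 3.2e-10) and rose by 0.81 ± 0.14 with gentamicin (edgeR, adjusted p = 2.9e-04). At 24 h it was at 12.8, 16.2 and 13.3 TPM in control, at 17.6, 17.2 and 15.4 TPM with acetaminophen and at 48.5, 53.2 and 39.3 TPM with gentamicin.

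ENSRNOT00000011134 (2062 bases, rank 24) was at 20.9 and 24.5 TPM in the controls of 6 h and at 7.62, 7.09 and 7.25 TPM with acetaminophen. With gentamicin it was at 34.5, 32.8 and 22.4 TPM, a range that overlaps control. It fell by 1.57 ± 0.15 on the log2 scale with acetaminophen (edgeR, adjusted p = 2.2e-09), and its change of 0.29 ± 0.14 with gentamicin was not called (edgeR, adjusted p = 0.19), but without gentamicin replicate 3, the library at 22.4 TPM, it was 0.48 and called (edgeR, adjusted p = 0.0034). At 24 h it was at 15.8, 17.8 and 14.0 TPM in control, at 17.7, 15.7 and 16.3 TPM with acetaminophen and at 63.6, 65.0 and 57.1 TPM with gentamicin. The lowest acetaminophen values at 6 h belonged to the transcript of rank 3, at 0.093, 0 and 0.0586 TPM in the 3 libraries, and which was at 1.69, 1.35 and 1.46 TPM with acetaminophen at 24 h.

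**Figure D4:**
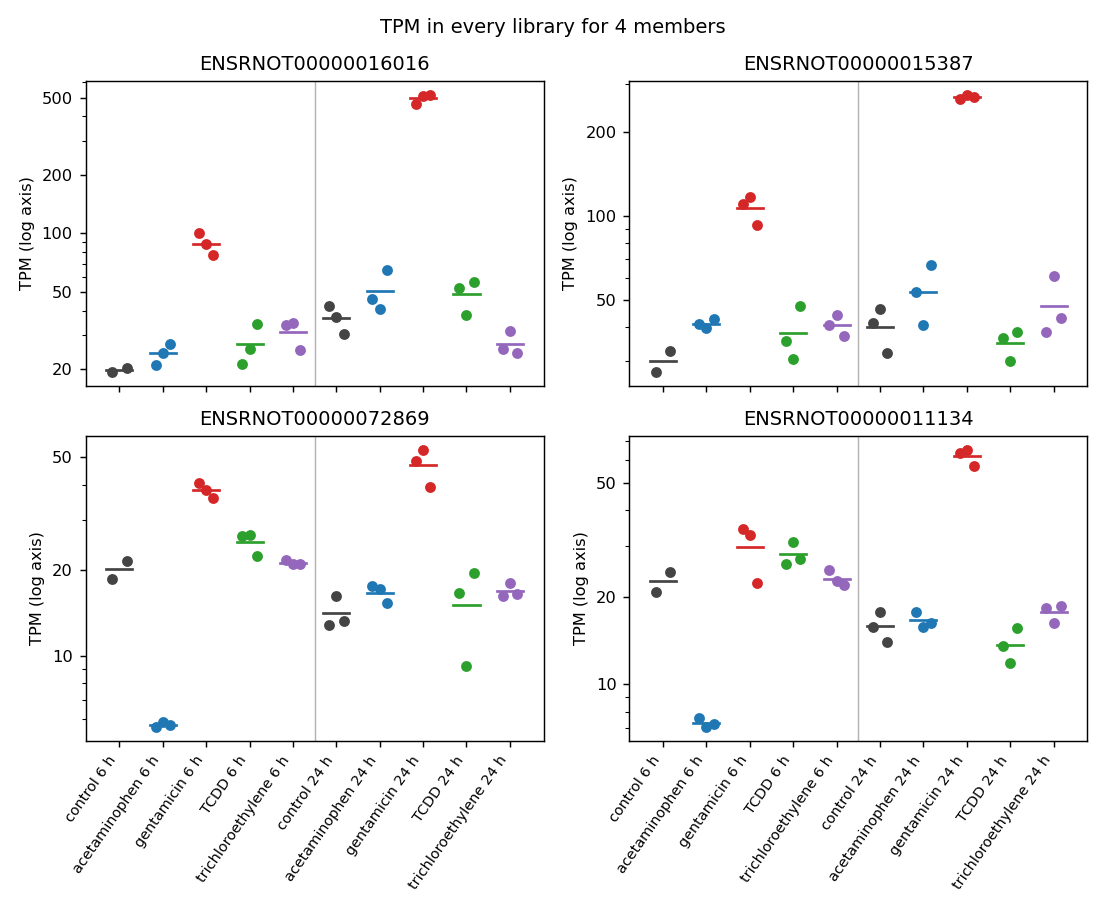
TPM on a log axis in every library (points) with the group mean (bar) for the 2 transcripts with the smallest p for gentamicin at 6 h (top) and the 2 with the smallest p among those that fell with acetaminophen at 6 h (bottom), with 6 h left of the grey line and 24 h right of it. ENSRNOT00000016016 and ENSRNOT00000015387 stand out in gentamicin at both times; ENSRNOT00000072869 and ENSRNOT00000011134 dip with acetaminophen at 6 h to 5.71 and 7.32 TPM on average and are near control with it at 24 h.

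The 7 transcripts that rose with acetaminophen at 6 h include 4 that were higher with acetaminophen than with gentamicin at that time. Of these the transcript of rank 34 (3963 bases) had the largest acetaminophen change. It was at 14.9 and 15.2 TPM in the controls, at 28.5, 30.3 and 29.9 TPM with acetaminophen and at 29.7, 29.7 and 27.2 TPM with gentamicin. It rose with both compounds, by 1.02 ± 0.09 and 0.82 ± 0.09 on the log2 scale (edgeR, adjusted p = 1e-09 and 5.5e-07), and the direct difference was -0.20 ± 0.08 for gentamicin against acetaminophen (edgeR, adjusted p = 0.028). The rises with both compounds kept their calls in all 15 alternatives each, while the direct difference lost its call in 7 of 16. These were acetaminophen replicate 2 or 3 or gentamicin replicate 3 left out, no low-count filter, library totals as the scale, and limma with either pseudocount (adjusted p from 0.053 to 0.84). At 24 h it was at 20.7, 20.0 and 18.2 TPM in control, 27.0, 26.8 and 27.2 TPM with acetaminophen, and 72.1, 75.4 and 64.6 TPM with gentamicin. It was also called higher at 24 h with acetaminophen, TCDD and trichloroethylene. The log2 changes were 0.29, 0.63 and 0.36 (edgeR, adjusted p = 0.0029, 1.7e-07 and 7.3e-04).

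TCDD and trichloroethylene at 6 h gave 0 calls among the 79 and 0% of all tested transcripts in either direction with edgeR. At an unadjusted p under 0.05, TCDD had 3 of the 79 higher (4.08% of all tested) and 1 lower (2.95%), and trichloroethylene 7 higher (7.2%) and 3 lower (5.75%). DESeq2 and limma also called 0 of the 79 with either compound. Over all 15 alternatives, 0% to 0.05% of all tested transcripts were called with TCDD and 0% to 3.22% with trichloroethylene. The median log2 change of the 79 was 0.10 with TCDD and 0.09 with trichloroethylene, against a median SE of 0.152 for a single transcript.

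The change with gentamicin was smaller at 6 h than at 24 h in every one of the 79. The log2 change at 6 h was a median of 23.2% of that at 24 h, with quartiles of 12% and 38.4%, and it passed 50% in 10 transcripts. Since the 24 h value was chosen to be high and the 6 h value was not, this order is in part fixed by the choice and was not tested. Across the 79 transcripts, which are not independent, Pearson's r between the changes at the separate times was 0.36 and Spearman's rho 0.23. Without the 3 transcripts of the largest 24 h change, r was 0.26. The choice left out smaller 24 h changes, so these values describe only the range it kept. Gentamicin at 6 h was the next highest of the 10 group means after gentamicin at 24 h in 47 of the 79 transcripts. The choice held the other 3 compounds near control at 24 h, which favours that order. No share over all tested transcripts is at hand for it. In control cells the level of most moved little between times: the log2 ratio of 24 h to 6 h, with 1 TPM added, had a median of 0.16. That ratio lay within 0.5 of 0 in 66 transcripts, above 0.5 in 10 and below -0.5 in 3, and ran from -0.73 to 1.2.

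**Figure D5:**
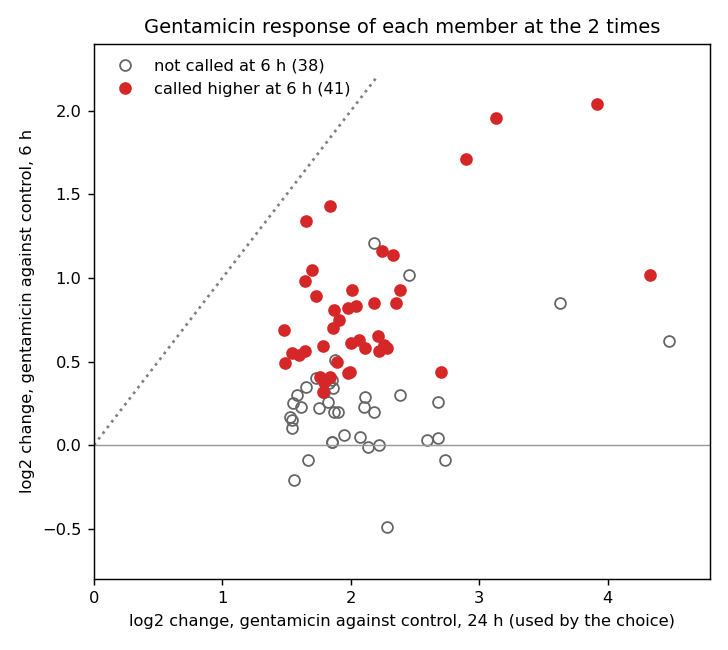
Log2 change with gentamicin against control at 24 h (horizontal, used by the choice) and at 6 h (vertical) for each of the 79 transcripts from edgeR, filled where called higher at 6 h (41) and open where not called (38), with a dotted line of equal change. All points lie below the line of equal change, and called and open points overlap over most of the 24 h range.

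Among the 79, the calls at 6 h varied with level and length. By mean control level, 4 of 12 transcripts at 1 to 3 TPM rose with gentamicin at 6 h, 8 of 19 at 3 to 10 TPM, 23 of 31 at 10 to 30 TPM, 5 of 14 at 30 to 100 TPM and 1 of 3 at 100 to 500 TPM. Over all tested transcripts the shares in those classes were 6.40%, 11.5%, 11.8%, 7.32% and 3.64%. By length, 0 of 7 transcripts under 1000 bases rose (3.27% of all tested of that length), 18 of 36 at 1000 to 2500 bases (7.55%) and 23 of 36 over 2500 bases (11.4%). The longer classes thus held more calls among the 79 and among all transcripts alike. By L at 24 h, 30 of 60 with an L of 1.3 to 2 rose at 6 h, 9 of 16 with 2 to 3, and 2 of 3 over 3. The median log2 changes at 6 h were 0.40, 0.59 and 1.02. These classes split the 79 by the value that chose them, and no share over all tested transcripts is at hand for them. With 3 transcripts in the highest class, no trend is read from these values.

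In level the 79 resembled other transcripts, with a median control level of 16.5 TPM beside 16.8 TPM for all in the control range, and their median length was 2442 bases beside 2019 for tested transcripts. Estimated counts were whole, to within 1e-06, in every library for 41 of them (51.9%, beside 59.6% of tested transcripts). Of those 41, 21 rose with gentamicin at 6 h, as did 20 of the other 38, whose fractional counts come from reads divided between transcripts and are less certain. The transcripts of rank 54 and 55, both of 537 bases, had the same estimated counts in all 29 libraries, so the 79 hold 78 distinct profiles; neither was called at 6 h.

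The early rise with gentamicin was about as frequent in other transcripts raised by gentamicin at 24 h. Of the other 774 with an L of at least 1.3, 763 were tested, and 375 of those (49.1%) rose with gentamicin at 6 h and 1 (0.131%) fell, with a median log2 change of 0.57 beside 0.44 for the 79. The gentamicin response at 6 h did not set the 79 apart from them in these counts. With acetaminophen at 6 h the counts differed more. Of the 763, 354 rose (46.4%) and 119 fell (15.6%), with a median of 0.49, beside 8.86%, 31.6% and -0.17 in the 79. The choice had already sorted transcripts by acetaminophen at 24 h. Of the 853 with a gentamicin L of at least 1.3, 494 lay above the acetaminophen limit and 76 below it. Those transcripts could not be among the 79, and the part of the choice in the acetaminophen difference at 6 h was not tested. Transcripts that met the limits for the other 3 compounds at 24 h but had a gentamicin L under 1.3 gave 13.6% higher and 31.7% lower with acetaminophen at 6 h, over 2178 tested, and 6.24% higher with gentamicin. These are counts over transcripts of the same libraries and carry no test.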

How the data were processed

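Transcripts were quantified by the authors with kallisto 0.43, per the submitters' processing notes. Per the file headers, each deposited table gives 1 library's estimated counts and TPM values per transcript, with length and effective length; 20.0% of the deposited estimated counts were not whole. No transcript release, strand setting or trimming step is named in the labels or headers. The transcripts and the classes were chosen with earlier results of these data known.

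Estimated counts were rounded, filtered with filterByExpr (minimum count 10; 15990 transcripts left) and scaled by TMM. With edgeR 4.0.16 in R 4.3.3, 1 robust quasi-likelihood model held a coefficient for each of the 10 groups (19 residual degrees of freedom). Contrasts were F tests, with Benjamini-Hochberg adjustment over all 15990 transcripts and calls under 0.05; the SE is the change divided by the square root of F. The steps were tested on simulated data. Fragment length is transcript length minus effective length, as the median where transcripts had 1000 bases or more.

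Identifiers were printed by a rule: the 2 transcripts with the smallest p among those higher, and those lower, with gentamicin at 6 h. There were 0 lower, so 2 that fell with acetaminophen were printed instead. The gene lists and cell type markers drawn up for named genes were not used, since no identifier could be paired with a name. Alternatives were DESeq2 1.42.0, median-of-ratios factors, no filter, a filter of 10 CPM in 2 libraries, a replicate block, only the compared groups, limma 3.58.1 on log2(TPM + 1) and log2(TPM + 0.1), and each library left out. Total counts as the scale and fragment length as a covariate were added after seeing the data.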

Additional observations from a re-analysis of the deposited data

How the results depend on the processing

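The count of transcripts that rose with gentamicin at 6 h ran from 24 to 39 when 1 library was left out in turn, with the low values of 24 and 25 from leaving out a control, and from 39 to 45 under the other alternatives. With a replicate block it was 41. Over all these alternatives, 3.64% to 11.5% of all tested transcripts were called higher. The deviations of same-numbered libraries had a median correlation of 0.003 over 126 pairs, and ran from -0.212 to 0.32. The share of pairs over 0.1 was 4%. With so few libraries per group, these values cannot show whether the numbers pair the samples. With acetaminophen at 6 h, 21 to 28 transcripts fell over the alternatives (16.1% to 31.7% of all tested) and 4 to 11 rose (15.8% to 32.9%), with 4 from limma with either pseudocount and 11 from only the groups compared. Gentamicin over acetaminophen gave 55 to 63 (18.9% to 33.7% of all tested), over TCDD 27 to 45 (5.26% to 11.5%) and over trichloroethylene 27 to 44 (5.84% to 12.6%). The single-transcript changes that changed call are named with their values above; ENSRNOT00000016016 and ENSRNOT00000015387 with gentamicin, and ENSRNOT00000072869 and ENSRNOT00000011134 with acetaminophen, kept direction and call in all 15 alternatives. The choice itself gave 73 transcripts with 0.1 TPM added (61 of the 79), 92 with 5 TPM (53), 82 with means of log2 values (75) and 110 on TMM-scaled TPM (52). With a library of 24 h left out it gave 70 to 94, with 58 to 77 of the 79 among them, the fewest without control replicate 3 and then TCDD replicate 3 (64).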
